A study of Rattus norvegicus with 12 samples.

Results

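The transcript levels of Nfe2l2, which encodes the transcription factor Nrf2, and of 4 antioxidant genes known as its targets, Nqo1, Hmox1, Gclc and Txnrd1, were described in rat liver after injection of the liver carcinogen NDEA (N-nitrosodiethylamine), with or without green tea as the drink. The 5 genes were taken from a table of 34194 gene IDs by their rat Ensembl IDs, with no cut on their values. Earlier results of these data were known when they were chosen. These were ENSRNOG00000001548 (Nfe2l2), ENSRNOG00000012772 (Nqo1), ENSRNOG00000014117 (Hmox1), ENSRNOG00000006302 (Gclc) and ENSRNOG00000009088 (Txnrd1). All 5 had a mean of at least 1 FPKM (a fragment count corrected for gene length and for library depth) over the 12 libraries and so were among the 11854 genes tested.

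The animals were 48 male Wistar rats of 140 to 160 g at the start, in 4 groups of 12, and the livers of 3 rats per group were sequenced. Their age was not given in the sources used here. Control rats received saline by intraperitoneal injection 2 times a week in weeks 2 to 9 and drank water. NDEA rats, the model group, received 25 mg/kg NDEA on the same schedule and drank water. NDEA+FYT and NDEA+CFT-1 rats received the same NDEA injections and drank, for 20 weeks, green tea made from a common variety (FYT, Fuyun6) or from the variety CFT-1, which was bred for a high content of the catechin EGCG (epigallocatechin gallate). By the study's methods livers were taken after 20 weeks of the experiment, whereas the labels count the 20 weeks from the treatment, so the time since the last injection is uncertain. No group drank tea without NDEA. At the end of the experiment the paper reports liver tumours in each injected group, with the lowest incidence under CFT-1, and none in Control. An effect of injection or tea on these genes cannot be told apart from one of tumours. In whole liver, a change in the number of cells of 1 type cannot be told apart from a change in RNA per cell.

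Nrf2 is held in the cytoplasm by Keap1, which directs it to degradation, and it escapes when electrophiles or oxidants modify Keap1. In the nucleus it pairs with small Maf proteins and binds antioxidant response elements, switching on genes for quinone reduction, glutathione synthesis, thioredoxin recycling and haem breakdown. Since the factor is controlled mainly as a protein, the level of its mRNA and the levels of its targets need not move together, and in liver the targets are known to respond to toxicants and to plant polyphenols.

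Across the 12 livers, Nqo1 was by far the most variable of the 5 transcripts. It was low in 2 of 3 Control livers and higher, by group mean, in each of the 3 groups given NDEA, and Txnrd1 followed it from liver to liver. Gclc was also higher by group mean in the injected groups as deposited, but by less than its spread. After scaling its NDEA and Control means were both 62.9 FPKM. Nfe2l2 had no common direction. Hmox1 was lower than in every Control liver in 8 of 9 injected livers after scaling and in 6 of 9 as deposited. This grouping was chosen after the values had been seen, and the share of all genes with such counts was not determined. The Hmox1 differences were -0.23 and -0.06 (exact permutation p = 0.327 and 0.850). None of the 5 genes passed the test adjusted over all genes in any comparison, and neither did any other gene, so the values below describe these livers.

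The stretches shown first are those in which the core of the antioxidant response element was found, since that element is what the 4 target genes are known to share. The core was searched as TGACNNNGC on both strands, in windows from 250 bases before to 50 bases after each gene's start (RefSeq, build GRCr8). Windows existed for 4 of the 5 genes, with 2 for Txnrd1. It was present in 4038 of 33469 windows, 12.1% of all, so a match alone does not set a gene apart. The 2 matches are printed from 5′ to 3′ on the gene's strand, with the core in capitals.
Txnrd1, chr7:22755964-22755992, minus strand: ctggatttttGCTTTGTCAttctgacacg
Nfe2l2, chr3:81028950-81028971, minus strand: gactagccatTGACGCCGCctc
The Txnrd1 match lay 78 to 70 bases before the start on the opposite strand, where it reads TGACAAAGC. The Nfe2l2 match lay at positions 39 to 47 after the start, on the same strand. These letters were not found in the windows of Nqo1, Gclc and the other Txnrd1 start, which says nothing of elements outside the window. Hmox1 was not among the windows.

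The 250 bases before the start are shown for Nqo1 and for the Txnrd1 start with the match, because these 2 transcripts had the highest correlation of any pair of the 5 genes over the 12 livers.
Nqo1, chr19:52220268-52220517, minus strand: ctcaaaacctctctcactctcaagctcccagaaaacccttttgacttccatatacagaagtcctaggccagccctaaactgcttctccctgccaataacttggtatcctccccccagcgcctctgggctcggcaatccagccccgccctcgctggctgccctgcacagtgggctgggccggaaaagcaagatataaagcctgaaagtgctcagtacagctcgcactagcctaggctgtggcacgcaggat
Txnrd1, chr7:22755905-22756154, minus strand: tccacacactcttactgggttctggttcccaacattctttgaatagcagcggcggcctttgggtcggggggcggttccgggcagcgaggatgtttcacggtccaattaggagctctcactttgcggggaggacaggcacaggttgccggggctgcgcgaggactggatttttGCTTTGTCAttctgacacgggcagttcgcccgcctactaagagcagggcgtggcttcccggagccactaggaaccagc
The GC content of the 300-base window was 56.3% for Nqo1 and 59.7% for this Txnrd1 start. Over all windows the median was 51.7%, with quartiles of 44.7% and 60.3%, so both lay within the upper part of the usual range. The Gclc window was richer, at 76.7%, and the Nfe2l2 window had 68.0%.

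A feature of the libraries touches every value below. The shallowest library was NDEA replicate 1, and the deepest, NDEA+CFT-1 replicate 1, held 1.66 times its fragments, as read from the steps of the lowest FPKM values. NDEA replicate 1 held the highest deposited FPKM of the 12 libraries for 49.4% of the genes tested. Its median-of-ratios size factor, a scaling that sets the median gene equal between libraries, was 1.40, against 0.771 to 1.12 in the other 11 libraries. After this scaling it was still the highest library for 20.0% of genes, but NDEA+CFT-1 replicate 2 was then highest for 22.2% and Control replicate 3 for 17.9%. Values are therefore given as deposited and after scaling. The part of the difference of NDEA replicate 1 in the results was not tested beyond leaving this library out. The fragments behind each value could be recovered from the same steps. They numbered 1462 to 3499 per library for Nfe2l2, 82 to 2287 for Nqo1 and 414 to 1086 for Hmox1, and the counting error was at most 11.0% of the value for any of the 5 genes, so the spread between livers was mostly far larger than counting error. It came closest to counting error for Hmox1 outside the NDEA group.

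**Figure D1:**
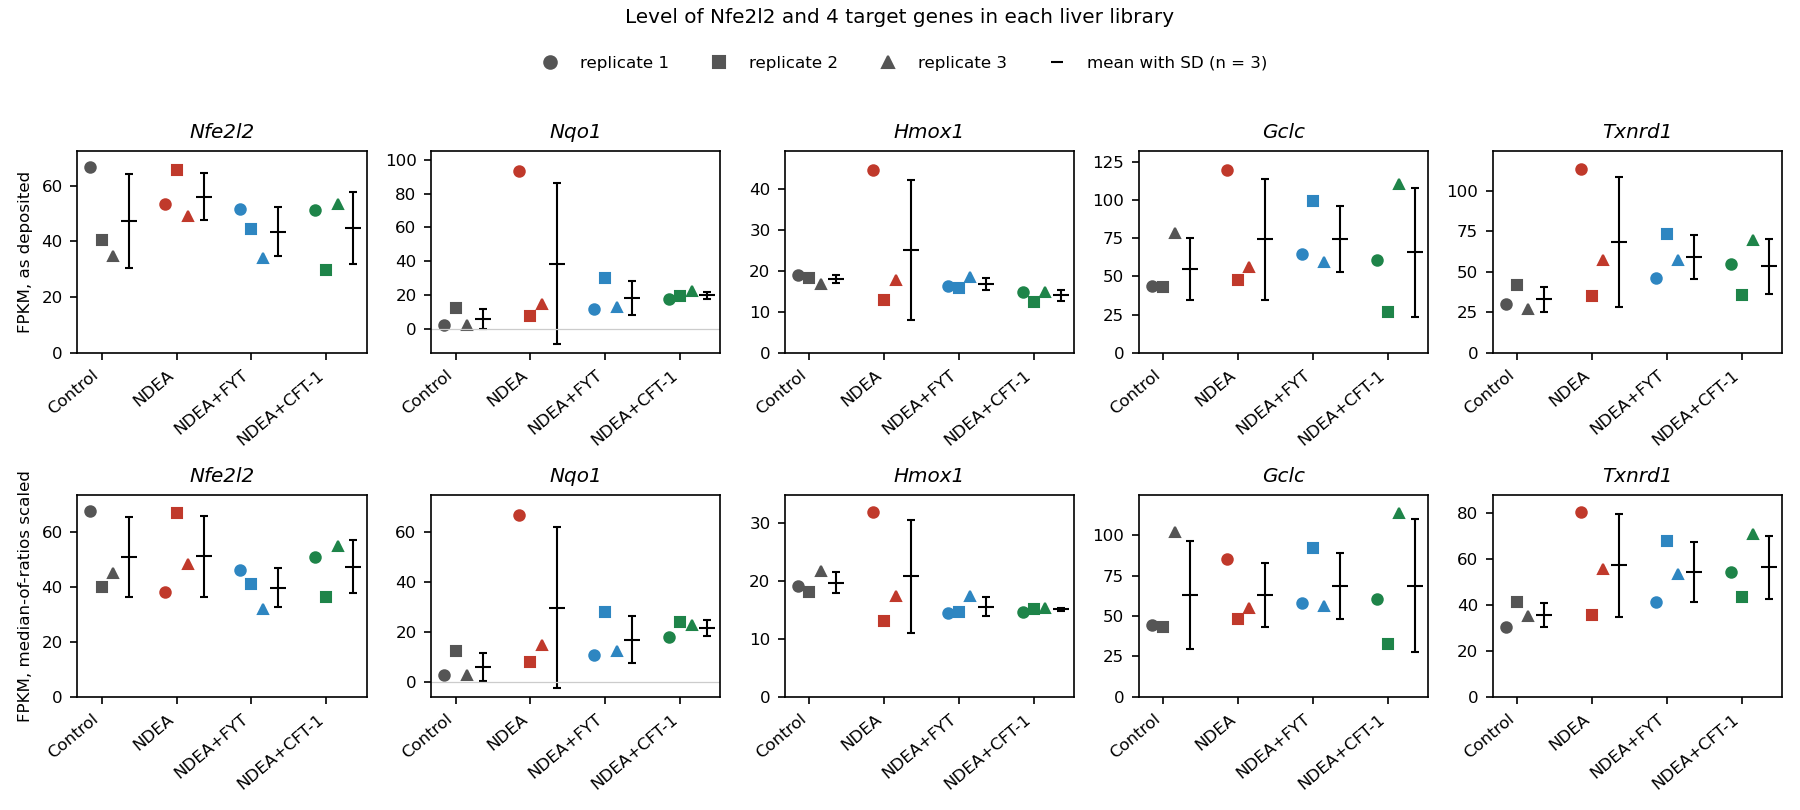
FPKM of each of the 5 genes (vertical axes, linear, 1 panel per gene) in the 12 liver libraries by group, as deposited in the upper panels and after median-of-ratios scaling in the lower panels. Symbols mark the replicate number, and the black bar gives the mean with the SD (n = 3). NDEA replicate 1 stands highest for Nqo1, at 93.5 FPKM as deposited, and for Hmox1 and Txnrd1 in both scalings, while Nfe2l2 overlaps between all groups.

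Nfe2l2, the regulator, was well expressed, with a mean of 47.9 FPKM over the 12 livers, above the mean of 87.4% of the genes tested. Its levels were 66.6, 40.5 and 34.9 FPKM in Control, 53.5, 65.7 and 49.2 in NDEA, 51.6, 44.5 and 34.1 in NDEA+FYT, and 51.2, 29.9 and 53.4 in NDEA+CFT-1. The highest value was thus in a Control liver, the lowest in an NDEA+CFT-1 liver, and every pair of groups overlapped. By mean, the order was NDEA (56.1 ± 8.58, SD, n = 3), Control (47.3 ± 16.9), NDEA+CFT-1 (44.8 ± 13.0) and NDEA+FYT (43.4 ± 8.80), and the livers of all neighbours in it overlapped. After scaling, the order was NDEA at 51.2 ± 14.7, Control at 51.0 ± 14.7, NDEA+CFT-1 at 47.5 ± 9.68 and NDEA+FYT at 39.8 ± 7.15. The 2.23-fold span from the lowest to the highest liver was ordinary: 48.8% of genes tested had a wider one on the log2 scale.

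Nqo1 encodes NAD(P)H quinone oxidoreductase, which reduces quinones by a pair of electrons at once and so keeps them out of redox cycling. It is the classical reporter of Nrf2 activity. Its levels were 2.56, 12.5 and 2.10 FPKM in Control and 93.5, 7.57 and 14.8 in NDEA. They were 11.8, 30.0 and 13.0 FPKM in NDEA+FYT and 17.8, 19.4 and 22.2 in NDEA+CFT-1. Control replicates 1 and 3 were lower than all other livers, but Control replicate 2 lay above 1 NDEA and 1 NDEA+FYT liver, so that only the NDEA+CFT-1 livers were all above all Control livers. The order by mean was NDEA (38.6 ± 47.7, SD, n = 3), NDEA+CFT-1 (19.8 ± 2.23), NDEA+FYT (18.3 ± 10.1) and Control (5.72 ± 5.88). The NDEA mean rested on replicate 1, and the neighbours among the 3 injected groups did not differ beyond their spread. The NDEA+CFT-1 livers were the most alike, from 17.8 to 22.2 FPKM.

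After scaling, Nqo1 remained at 2.60, 12.4 and 2.72 in Control and 66.6, 7.74 and 14.5 in NDEA. NDEA+FYT livers then had 10.6, 27.7 and 12.2, and NDEA+CFT-1 livers 17.8, 23.7 and 22.8. NDEA replicate 1 stayed the highest and Control replicates 1 and 3 the lowest, and Control replicate 2 then lay above 1 NDEA and 2 NDEA+FYT livers. Over the 12 livers Nqo1 spanned 44.5-fold as deposited and 25.6-fold after scaling, and only 0.287% and 0.481% of the genes tested had a larger log2 range. Its SD within groups was 1.13 on the log2(FPKM + 1) scale, against a median of 0.30 over all genes. Of the 500 genes nearest to it in mean level, 0.8% had a larger within-group SD.

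Txnrd1 encodes the cytosolic thioredoxin reductase, a selenoprotein that uses NADPH to return thioredoxin to its reduced form. Its levels were 30.2, 41.6 and 27.2 FPKM in Control and 113.1, 34.8 and 57.0 in NDEA. In NDEA+FYT they were 46.4, 73.4 and 57.1 FPKM, and in NDEA+CFT-1 54.7, 35.8 and 69.3. All NDEA+FYT livers stood above all Control livers, whereas NDEA replicate 2 and NDEA+CFT-1 replicate 2 fell within the Control range. By mean, the order was NDEA (68.3 ± 40.4, SD, n = 3), NDEA+FYT (59.0 ± 13.6), NDEA+CFT-1 (53.3 ± 16.8) and Control (33.0 ± 7.59). Among the injected groups the neighbours did not differ beyond their spread. After scaling, Control livers had 30.7, 41.2 and 35.3 and NDEA livers 80.6, 35.6 and 55.9. NDEA+FYT livers had 41.5, 67.9 and 53.7 and NDEA+CFT-1 livers 54.6, 43.7 and 71.2, so that on this scale both tea groups lay wholly above Control, NDEA+FYT by a narrow margin, and only NDEA replicate 2 overlapped it.

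Gclc encodes the catalytic subunit of glutamate-cysteine ligase, the rate-limiting enzyme of glutathione synthesis. It was the most abundant of the 5 per length, with a mean of 67.5 FPKM. Its levels were 43.4, 43.3 and 78.4 FPKM in Control, 119.9, 47.3 and 56.0 in NDEA, 64.8, 99.2 and 59.4 in NDEA+FYT, and 60.5, 26.7 and 110.5 in NDEA+CFT-1. In Control, NDEA and NDEA+FYT 1 liver stood well above the other two, the NDEA+CFT-1 livers were spread wide, and all groups overlapped. The means were 55.0 ± 20.2 in Control, 65.9 ± 42.2 in NDEA+CFT-1, 74.4 ± 39.6 in NDEA and 74.5 ± 21.6 in NDEA+FYT (SD, n = 3), none apart from its neighbour beyond the spread. After scaling the means were 62.9 ± 33.5 in Control, 62.9 ± 19.8 in NDEA, 68.6 ± 20.2 in NDEA+FYT and 68.8 ± 41.1 in NDEA+CFT-1. The highest scaled liver was NDEA+CFT-1 replicate 3, at 113.5, and Control replicate 3 followed at 101.6. The high values thus did not belong to injected animals alone.

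Hmox1 encodes the inducible haem oxygenase, which breaks haem down to biliverdin, iron and carbon monoxide. It is a target of Nrf2 that is also repressed by Bach1. Its levels were even in 3 groups, at 18.9, 18.3 and 16.8 FPKM in Control, 16.3, 15.9 and 18.5 in NDEA+FYT, and 14.8, 12.5 and 14.9 in NDEA+CFT-1. NDEA livers had 44.8, 12.9 and 17.8. Replicate 1 of this group was more than any other liver, and replicate 2 was lower than all but 1. The means were 25.1 ± 17.2 in NDEA, 18.0 ± 1.08 in Control, 16.9 ± 1.43 in NDEA+FYT and 14.1 ± 1.38 in NDEA+CFT-1 (SD, n = 3). The NDEA+CFT-1 livers were all below the Control and the NDEA+FYT livers as deposited. After scaling the means were 20.8 ± 9.82, 19.8 ± 1.88, 15.6 ± 1.62 and 15.1 ± 0.320 in the same order. Both tea groups were then wholly below Control, and they overlapped each other.

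The first comparison set NDEA livers against Control livers, both from rats that drank water. Nqo1 was higher in NDEA than in Control by a log2 difference of 2.14 ± 0.78 (SE, n = 3 per group), a 4.41-fold difference on the log2(FPKM + 1) scale with a 95% confidence interval for the log2 difference of 0.45 to 3.84, and limma's p adjusted over all genes was 0.524. Txnrd1 was higher by 0.89 ± 0.38 (95% interval 0.06 to 1.71, limma adjusted p = 0.524). The other differences were 0.36 for Gclc, 0.29 for Nfe2l2 and 0.26 for Hmox1, with adjusted p from 0.648 to 0.738. No gene passed the adjusted threshold (0% of genes tested), so 0 of the 5 did. At an unadjusted p under 0.05, 2 of the 5 passed, both higher, while 8.7% of all genes did and 7.59% were higher. This count of 2 was 1, Nqo1 alone, after scaling, with a replicate block or without NDEA replicate 3, and 0 without NDEA replicate 1, Control replicate 1 or Control replicate 3 or with only these 2 groups in the fit. After scaling without NDEA replicate 1, Hmox1 alone passed, as a lower level (-0.36, limma unadjusted p = 0.045). All 5 differences were above 0, as were 76.2% of all genes, whose median difference was 0.20.

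Scaling removed that common shift, to a median of -0.04, with 45% of genes above 0. Unadjusted, 8.13% of genes then passed. The Nqo1 difference was 1.89 ± 0.70 (95% interval 0.35 to 3.44, limma adjusted p = 0.577) and that of Txnrd1 0.60 ± 0.29 (-0.04 to 1.25, limma adjusted p = 0.577). Those of Gclc, Nfe2l2 and Hmox1 came to 0.08, 0.00 and -0.02. Measured relative to the median gene, then, Nqo1 and Txnrd1 kept a positive difference and the other 3 had next to none, with 95% intervals of -0.92 to 1.07, -0.57 to 0.58 and -0.56 to 0.53 in that order. The libraries of NDEA and Control overlapped for each of the 5 genes, and 10.8% of all genes were without overlap and higher in NDEA as deposited.

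NDEA replicate 1 moved these differences the most for Nqo1, Txnrd1, Gclc and Hmox1. Without it, the difference from Control was 1.13 for Nqo1, 0.44 for Txnrd1, 0.31 for Nfe2l2, -0.04 for Gclc and -0.24 for Hmox1, so the last pair changed sign. For Nqo1, leaving out NDEA replicate 2 acted the other way and raised the difference to 2.86. For Nfe2l2 the Control livers mattered more, with 0.56 without Control replicate 1 and 0.10 without Control replicate 3, and for Gclc the difference was 0.64 without Control replicate 3. Whatever library was left out, Nqo1 and Txnrd1 stayed higher in NDEA, from 1.13 to 2.86 and from 0.44 to 1.28.

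**Figure D2:**
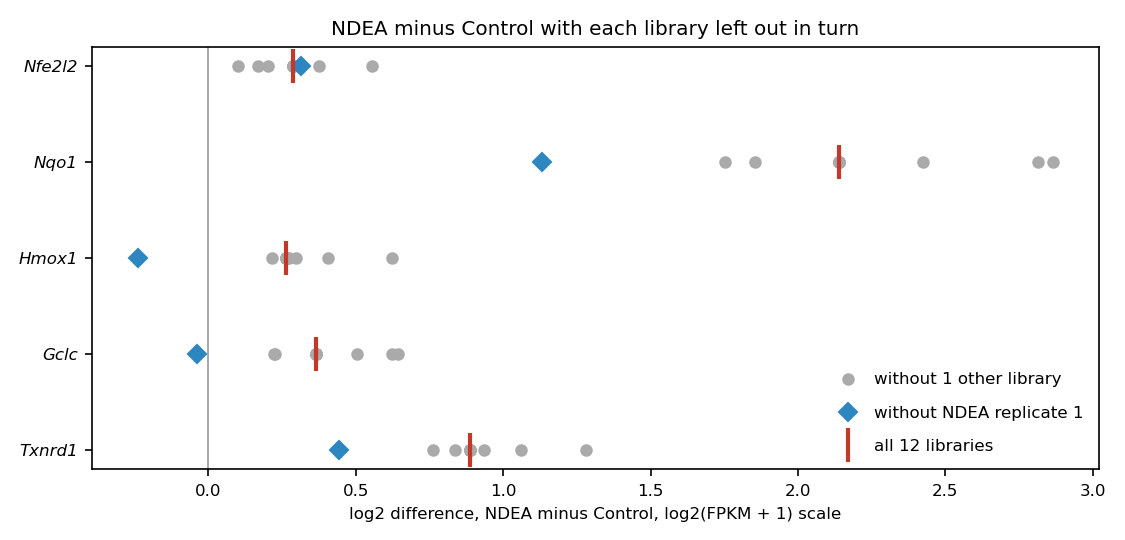
Log2 difference in FPKM + 1, NDEA minus Control (horizontal axis), for the 5 genes (vertical axis) with all 12 libraries (red bar), without NDEA replicate 1 (blue diamond) and without each of the other libraries in turn (grey circles). Nqo1 and Txnrd1 stay right of 0 in each case, and without NDEA replicate 1 Hmox1 and Gclc cross to -0.24 and -0.04.

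The tea comparisons asked whether either drink changed these genes in NDEA-injected rats. In NDEA+CFT-1 against NDEA the differences were -0.60 for Hmox1 (95% interval -1.33 to 0.12), -0.35 for Nfe2l2 (-0.96 to 0.26), -0.27 for Gclc (-1.32 to 0.78), -0.24 for Txnrd1 (-1.07 to 0.59) and -0.17 for Nqo1 (-1.87 to 1.52). No gene passed the adjusted threshold (0% of genes tested). None of the 5 passed unadjusted either, where 12.6% of all genes did. All 5 were below 0 beside a median gene at -0.16 and 30.2% of genes above 0, and after scaling, with the median gene at 0.05, they were -0.34, -0.09, -0.01, 0.03 and 0.09 in the same order. A difference between these groups was thus not detectable for any of the 5 genes with 3 livers each, and for Nqo1 the interval was wide enough to hold a more than 2-fold difference either way. Without NDEA replicate 1 the Hmox1 difference shrank to -0.10 and that of Nqo1 became 0.83, whereas without NDEA replicate 2 that of Hmox1 was -0.96 and passed unadjusted.

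For NDEA+FYT against NDEA the differences were -0.40 for Nqo1 (95% interval -2.09 to 1.30), -0.37 for Nfe2l2 (-0.99 to 0.24), -0.35 for Hmox1 (-1.08 to 0.37), -0.07 for Txnrd1 (-0.90 to 0.76) and 0.09 for Gclc (-0.96 to 1.14). None of the 5 passed at any threshold, beside 0% of all genes adjusted and 1.48% unadjusted. Scaling changed these little, to -0.35, -0.33, -0.31, -0.03 and 0.13, since the median gene lay at -0.03 before it. Both tea comparisons used the same 3 NDEA livers, so the large Nqo1 and Hmox1 values of NDEA replicate 1 enter each of them. Without that liver the FYT differences were 0.61 for Nqo1 and 0.15 for Hmox1, and without NDEA replicate 2 that of Hmox1 was -0.71 and passed unadjusted.

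The varieties themselves were compared in NDEA+CFT-1 against NDEA+FYT. The differences were 0.23 for Nqo1 (95% interval -1.47 to 1.92), 0.02 for Nfe2l2 (-0.59 to 0.63), -0.17 for Txnrd1 (-0.995 to 0.66), -0.25 for Hmox1 (-0.98 to 0.48) and -0.36 for Gclc (-1.41 to 0.69), with adjusted p from 0.937 to 0.994. No gene passed adjusted (0%), and unadjusted 5.42% of all genes but none of the 5 did. Hmox1 was lower in each CFT-1 liver than in each FYT liver as deposited, a pattern shared by 18.9% of the genes tested. The pattern was absent after scaling, where the Hmox1 difference was -0.04. The other scaled differences were 0.44 for Nqo1, 0.24 for Nfe2l2, 0.05 for Txnrd1 and -0.13 for Gclc, and none passed unadjusted. With 3 livers a group, an exact permutation test of a single gene could not go below p = 0.1 here.

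**Figure D3:**
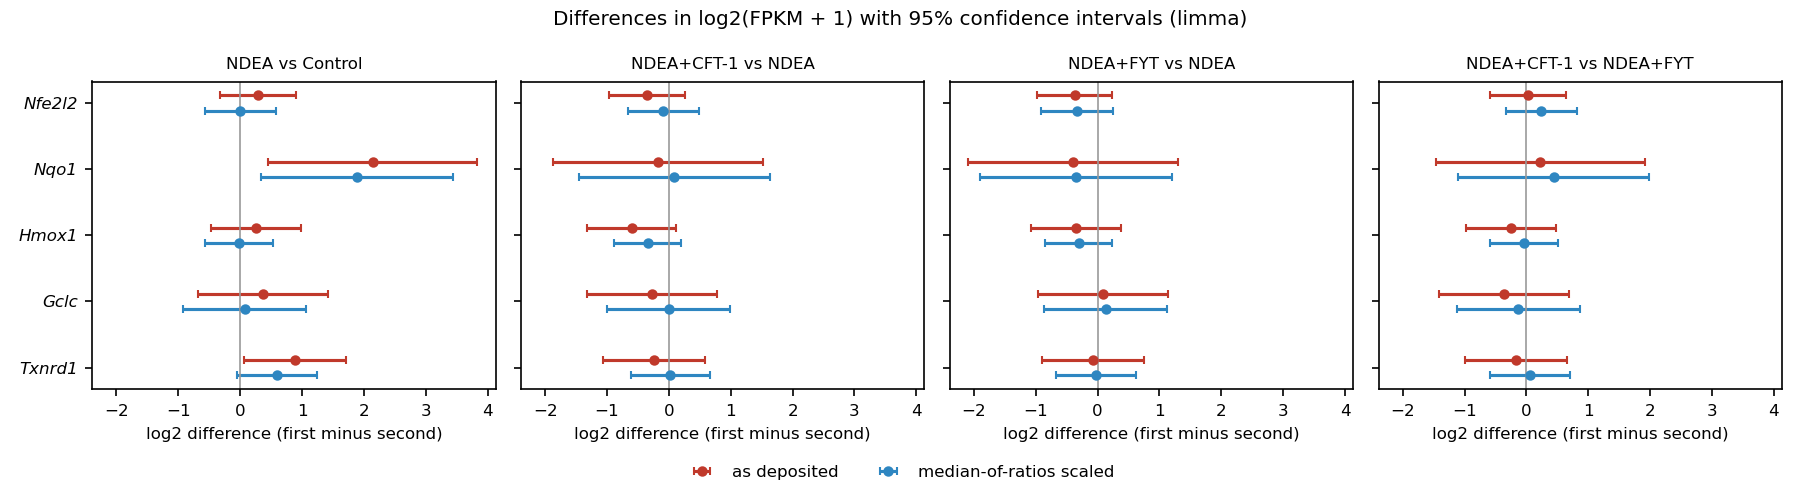
Log2 differences in FPKM + 1 (horizontal axis, first group minus second) with 95% confidence intervals from limma for the 5 genes (vertical axis) in 4 comparisons, as deposited (red) and after median-of-ratios scaling (blue). Only the NDEA minus Control panel has intervals clear of 0, for Nqo1 in both scalings (2.14 and 1.89) and for Txnrd1 as deposited (0.89), and none of these passed the adjusted threshold.

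Against Control, both tea groups had higher Nqo1 means, as did NDEA alone, whose difference of 2.14 became 1.13 without NDEA replicate 1. In NDEA+CFT-1 the difference was 1.97 ± 0.78 (SE, n = 3 per group, 95% interval 0.27 to 3.66, limma adjusted p = 1.000), and the libraries did not overlap, as for 6.07% of all genes in this direction. In NDEA+FYT it was 1.74 ± 0.78 (95% interval 0.05 to 3.44, limma adjusted p = 0.844). With 1 library left out in turn, these ran from 1.58 to 2.64 and from 1.34 to 2.42, both highest without Control replicate 2. The SE comes from the fit over all 4 groups, so the wide spread of the NDEA livers enters both intervals. Txnrd1 differed from Control by 0.65 in NDEA+CFT-1 (95% interval -0.18 to 1.47) and by 0.82 in NDEA+FYT (-0.01 to 1.64), and the FYT libraries were wholly above Control, like 18.8% of all genes. No gene passed the adjusted threshold in either comparison (0%), and unadjusted 3.25% of genes passed with CFT-1 and 3.8% with FYT, of the 5 only Nqo1 in each. With CFT-1, Nqo1 still passed unadjusted after scaling, but not without Control replicate 1 or 3 or NDEA+CFT-1 replicate 2 or 3. With FYT it no longer passed after scaling (95% interval -0.01 to 3.09), after quantile normalization or with no filter on low values. Nor did it pass with a replicate block or without any one of 8 of the 12 libraries. Without NDEA replicate 1, Txnrd1 passed unadjusted as well in both comparisons, and Hmox1 did so, as a lower level, with CFT-1. After scaling without that library, both genes passed in both comparisons, Hmox1 again as a lower level. With CFT-1, Txnrd1 also passed under library weights and in the fit of only these groups. With FYT it did so without Control replicate 2, NDEA replicate 2 or NDEA+FYT replicate 1, and under library weights, where Gclc passed too. After scaling, Nqo1 differed by 1.98 in NDEA+CFT-1 and 1.54 in NDEA+FYT, and Txnrd1 by 0.63 and 0.57. The libraries then lay wholly above Control for both genes in NDEA+CFT-1, beside 5.2% of all genes, and for Txnrd1 in NDEA+FYT, beside 5.18%. The 3 comparisons share the Control livers, including the 2 with very low Nqo1, so they are not separate evidence.

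Hmox1 had differences below 0 from Control in both tea groups, none of which passed a threshold with all 12 libraries. As deposited the difference was -0.34 in NDEA+CFT-1 (limma adjusted p = 1.000), without overlap, like 2.32% of all genes in this direction. In NDEA+FYT it was -0.09 (limma adjusted p = 0.947), with overlapping livers. After scaling it was -0.36 in NDEA+CFT-1 and -0.32 in NDEA+FYT, both without overlap, beside 4.12% and 8.65% of all genes. Gclc and Nfe2l2 had differences from Control of 0.09 and -0.07 in NDEA+CFT-1 and of 0.45 and -0.09 in NDEA+FYT, with overlapping livers. After scaling these were 0.07 and -0.09 in NDEA+CFT-1 and 0.21 and -0.33 in NDEA+FYT, again with overlapping livers. The scaled Nfe2l2 difference in NDEA+FYT was thus about as large as that of Hmox1 there.

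Setting all 9 NDEA-injected livers against the 3 Control livers was a comparison chosen after the values had been seen. Nqo1 lay above the Control median in 9 of 9 injected livers and above the highest Control liver in 7. Its difference was 1.95 ± 0.63 (SE, limma adjusted p = 0.822), and a two-sided exact permutation test over the 220 possible choices of 3 libraries gave p = 0.018, the smallest possible being 0.0045. Txnrd1 was above the Control median in 9 of 9 and above every Control liver in 7, with a difference of 0.78 and an exact permutation p of 0.050. After scaling these became 1.80 for Nqo1 (exact p = 0.018, 6 of 9 livers above every Control liver) and 0.60 for Txnrd1 (exact p = 0.032, 8 of 9). Gclc differed by 0.30, or 0.12 after scaling (exact p = 0.482 and 0.759), and lay above the Control median in 8 of 9 injected livers on both scales. Hmox1 differed by -0.06, or -0.23 after scaling (exact p = 0.850 and 0.327), and was below every Control liver in 6 of 9 injected livers as deposited and in 8 of 9 after scaling, the exception being NDEA replicate 1. Nfe2l2 differed by 0.04, or -0.14 after scaling (exact p = 0.873 and 0.555). The share of all genes with such counts of livers above or below Control was not determined. No gene passed the adjusted threshold (0%), and unadjusted 4.07% of genes were higher in injected livers, with Nqo1 and Txnrd1 among them, but neither without Control replicate 1 or without Control replicate 3. These exact p-values belong to 5 genes and 2 scalings and were not adjusted. They place the observed difference among those of all choices of 3 libraries, and they pool livers of different treatments as injected.

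A single test for any difference among the 4 groups gave limma adjusted p = 0.804 for Nqo1 and 0.811 for Txnrd1, and from 0.848 to 0.933 for the other 3 genes. No gene passed it (0%), and 6.22% of all genes passed unadjusted, with none of the 5 among them.

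By r over the 12 livers, Nqo1 and Txnrd1 were the closest pair of the 10 that the 5 genes form. On scaled log2 values, Pearson's r was 0.88 and Spearman's rho 0.88 over the 12 libraries, which share their scaling and in part their treatment. Among the 11853 other genes tested, Nqo1 ranked 24th in likeness to Txnrd1, and Txnrd1 ranked 66th in likeness to Nqo1. Pearson's r was 0.83 without NDEA replicate 1 and 0.77 without the 2 libraries farthest from the Nqo1 median (Control replicate 1 and NDEA replicate 1). Deviations from the group means had r = 0.80 and went the same way in 9 of 12 livers, and without NDEA replicate 1 they had r = 0.65 and went the same way in 9 of 11. As deposited, r was 0.91.

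The remaining pairs had a lower r over the 12 libraries on both scales. Gclc and Txnrd1 came next, with r = 0.55 over the 12 scaled libraries (rho 0.49) and 0.69 as deposited (rho 0.62). Without the 2 libraries farthest from the Gclc median, their r was 0.77 after scaling (without Control replicate 3 and NDEA+CFT-1 replicate 3), no lower than that of Nqo1 and Txnrd1 without their own 2, and 0.56 as deposited (without NDEA replicate 1 and NDEA+CFT-1 replicate 2). Gclc and Nqo1 had r = 0.20 after scaling. Hmox1 and Nqo1 had r = 0.17, which became -0.63 without NDEA replicate 1, NDEA replicate 1 being the liver with the highest values of both. Nfe2l2 had an r of -0.49 with Nqo1 after scaling and of -0.03 as deposited, and -0.16 after scaling without Control replicate 1 and NDEA replicate 2. The level of the Nfe2l2 transcript thus did not rank the livers as its target Nqo1 did. Deviations from the group means were correlated in other pairs too. After scaling they had r = 0.64 in Gclc and Txnrd1, and 0.59 without NDEA replicate 1. In Hmox1 they had r = 0.67 with Txnrd1 and 0.63 with Nqo1, but 0.35 and -0.13 without that library. In Nfe2l2 they had r = -0.64 with Nqo1, and -0.49 without it. All r are given as descriptions of these livers.

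**Figure D4:**
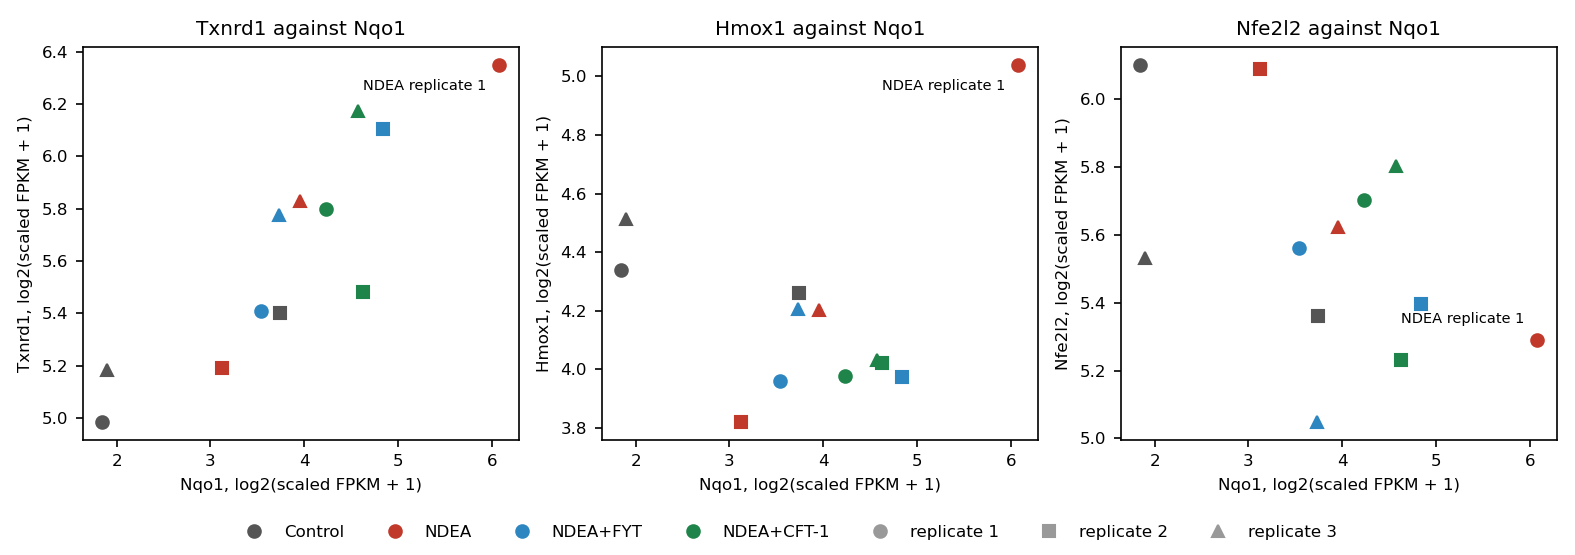
Scaled log2(FPKM + 1) of Txnrd1, Hmox1 and Nfe2l2 (vertical axes) against that of Nqo1 (horizontal axes) in the 12 livers, with colour for the group and symbol for the replicate number. Txnrd1 rises with Nqo1 (r = 0.88), Hmox1 does so only through NDEA replicate 1 (r = 0.17 with it, -0.63 without), and Nfe2l2 has r = -0.49.

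Levels relative to Nfe2l2 in the same library do not depend on the scaling between libraries, and were added after the values had been seen. The ratio of Nqo1 to Nfe2l2 FPKM was 0.0384, 0.309 and 0.0602 in Control and 1.75, 0.115 and 0.301 in NDEA. It was 0.229, 0.674 and 0.382 in NDEA+FYT and 0.348, 0.649 and 0.417 in NDEA+CFT-1. Only the NDEA+CFT-1 livers were all above Control, as for 1.29% of the 11853 other genes tested. Txnrd1 ran from 0.453 to 1.03 times Nfe2l2 in Control and from 1.07 to 1.30 times in NDEA+CFT-1, again without overlap and so among the same 1.29% of genes. In NDEA+FYT it was 0.898 to 1.67 times and in NDEA 0.530 to 2.11 times, both overlapping Control. Hmox1, at 0.196 to 0.836 times Nfe2l2, and Gclc, at 0.652 to 2.25 times, overlapped between all groups.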

How the data were processed

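RNA-seq libraries of 12 livers were analysed, 3 per group, grouped by their labels. The authors deposited FPKM values, made per the submitters' processing notes and the study's methods with Trimmomatic, HISAT2, removal of PCR duplicates and HTSeq 0.6.1 on build Rnor_6.0. Other versions and the annotation are not given in the sources used here. FPKM divides by total fragments, so a few abundant genes can shift all others.

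The 5 genes, the lists and the tests were chosen with earlier results of these data known, and the named genes are the 5. Genes averaging 1 FPKM or more entered a limma fit (limma 3.58.1, R 4.3.3, empirical Bayes with trend) on log2(FPKM + 1) over all 4 groups, with Benjamini-Hochberg adjustment over 11854 genes and a threshold of 0.05. The fit was run on simulated data with independent genes and no shift between libraries, so that run says nothing of the library differences described above. The study's DEGSeq needs counts and was not run. Fragments were recovered from FPKM steps to within 0.01 of a whole number and used for counting error only. Alternatives were median-of-ratios scaling, quantile normalization, another pseudocount (0.1), another filter (5 FPKM or none), library weights, no trend, fits of only the groups compared, a replicate block and leaving out each library. The labels do not say what a replicate number marks. Deviations from the group means correlated at 0.22 to 0.28 in all 3 same-numbered pairs of Control and NDEA+CFT-1. In the 6 other pairs of these 2 groups they correlated at -0.25 to 0.06. In the other 5 combinations of groups, at least 1 same-numbered pair was under 0.1. Differently numbered libraries reached 0.39 (Control replicate 2 and NDEA replicate 1), so a pairing by number was not established. Groups were compared unpaired, with the replicate block as an alternative. The labels do not say more of the samples than that they are separate livers. Lists of other Nrf2 pathway genes and of liver cell type markers (88 symbols) could not be matched to the table's IDs and were not analysed here, so the tissue was not checked against markers and the genes nearest in pattern to each of the 5 are not named.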

Additional observations from a re-analysis of the deposited data

How the results depend on the processing

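None of the 5 genes passed the adjusted threshold in any of 35 differences under any alternative (smallest limma adjusted p 0.199), and 60 of 800 alternative values changed sign. Many of the 800 could not change. The other filters, no trend, the replicate block and fits of only the groups compared return the same difference by construction. Leaving out a library of a group not compared does so too. The share that changed sign is therefore no measure of stability. Nqo1 and Txnrd1 stayed above 0 against Control in every alternative run, for NDEA from 1.04 to 2.86 and from 0.33 to 1.28. Counting error was small beside the spread between livers except for Hmox1, where it was of similar size in some groups. Where a value changed, the cause was not tested.

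The count of all genes called was 0 in each comparison as reported. With no filter on low values (genes at 0 in every library left out) it was 1 for NDEA, NDEA+CFT-1 and NDEA+FYT each against Control, 2 for the injected livers and 1 for any difference. Library weights gave 19 for NDEA+CFT-1 against NDEA, 1 for NDEA+CFT-1 against NDEA+FYT and 3 for NDEA+CFT-1 against Control. Leaving out 1 library in turn gave 0 to 2 for NDEA and for the injected livers against Control and 0 to 1 for NDEA+CFT-1 against Control, the highest without Control replicate 2. It gave 0 to 1 for NDEA+FYT against NDEA and against Control, NDEA+CFT-1 against NDEA+FYT and any difference, the highest without NDEA+FYT replicate 3.

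Median-of-ratios scaling turned Hmox1 to -0.016 in NDEA against Control, Nqo1 and Txnrd1 to 0.091 and 0.027 in NDEA+CFT-1 against NDEA, Txnrd1 to 0.054 in NDEA+CFT-1 against NDEA+FYT, and Nfe2l2 to -0.14 in the injected livers, where quantile normalization gave -0.052. Library weights turned Nfe2l2 to -0.040 and Hmox1 to -0.10 in NDEA against Control. They turned Nqo1, Gclc and Txnrd1 to 0.45, 0.34 and 0.13 in NDEA+CFT-1 against NDEA, Nqo1 and Txnrd1 to 0.33 and 0.16 in NDEA+FYT against NDEA, and Nfe2l2 to -0.14 in the injected livers. Scaling without NDEA replicate 1 turned Hmox1 and Gclc to -0.36 and -0.16 in NDEA against Control, and Nqo1, Gclc and Txnrd1 to 0.93, 0.23 and 0.30 in NDEA+CFT-1 against NDEA. It gave Nqo1, Hmox1 and Txnrd1 0.49, 0.032 and 0.25 in NDEA+FYT against NDEA, Txnrd1 0.050 in NDEA+CFT-1 against NDEA+FYT and Nfe2l2 -0.075 in the injected livers.

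Leaving out 1 library in turn changed further signs. Against Control, the ranges were -0.24 to 0.62 for Hmox1 and -0.037 to 0.64 for Gclc in NDEA, -0.25 to 0.20 for Nfe2l2 and -0.38 to 0.62 for Gclc in NDEA+CFT-1, -0.27 to 0.18 for Nfe2l2 in NDEA+FYT, and -0.14 to 0.31 for Nfe2l2 and -0.22 to 0.064 for Hmox1 in the injected livers. For NDEA+CFT-1 against NDEA they were -0.90 to 0.83 for Nqo1, -0.75 to 0.26 for Gclc and -0.63 to 0.20 for Txnrd1. For NDEA+FYT against NDEA they were -1.12 to 0.61 for Nqo1, -0.71 to 0.15 for Hmox1, -0.17 to 0.49 for Gclc and -0.46 to 0.37 for Txnrd1. For NDEA+CFT-1 against NDEA+FYT they were -0.14 to 0.28 for Nfe2l2, -0.0062 to 0.63 for Nqo1, -0.83 to 0.17 for Gclc and -0.38 to 0.086 for Txnrd1.

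The groups share replicate numbers. Same-numbered libraries deviated together (r over 0.1) in 7 of 18 pairs, with a median r of 0.04, and other-numbered libraries in 8 of 36, with a median of -0.02. Control and NDEA+CFT-1 were the only 2 groups in which all 3 same-numbered pairs did. A fit of these 2 groups with the replicate block was added after seeing the data. It called 0 genes and gave limma adjusted p = 0.627 for Nqo1. The smallest limma adjusted p of any gene was 0.158, against 0.892 in the same 2-group fit without the block. Each group holds each replicate number once, so a block cannot move a group difference. The Nqo1 difference of 1.97 is thus unchanged by design. With a replicate block over all 4 groups, the count of genes called was 0 in every comparison. For Nqo1 in NDEA against Control the difference is again 2.14 by design. Its SE went from 0.78 to 0.83 and limma's unadjusted p from 0.018 to 0.029, with an adjusted p of 0.502. Scaling with the replicate block gave, also by design, the same differences as scaling alone, -0.016, 0.091, 0.027, 0.054 and -0.14 among them.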
